A study of Homo sapiens with 28 samples.

Results

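A set of 9 genes of prostaglandin E2 synthesis, prostaglandin E2 reception and bradykinin reception was followed through renal cell carcinoma xenografts that had become resistant to sorafenib or sunitinib. They are the cyclooxygenases PTGS1 and PTGS2, the prostaglandin E synthases PTGES, PTGES2 and PTGES3, the prostaglandin E2 receptors PTGER2 and PTGER4, and the bradykinin receptors BDKRB1 and BDKRB2. The set was chosen with earlier results of these arrays known, because PTGES and BDKRB2 had been seen higher in resistant tumours of the 786-O line on both drugs. All 9 had at least 1 probe set among the 19775 genes measured, with 15 probe sets in all, and 8 of the 9 passed the filter on low signals. The filter asked for a signal above 89.4, the median of all values, on at least 4 of the 28 arrays, and PTGER2 did not reach it. A gene is represented below by its brightest probe set.

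Each of the 28 arrays held RNA of 1 subcutaneous flank tumour grown from 786-O or A498 cells, established human lines of clear cell renal carcinoma that lack a working VHL protein, in female athymic nude/beige mice aged 6 to 8 weeks. There were 5 sorafenib-resistant 786-O tumours and 5 untreated 786-O tumours of the same arm, 4 sunitinib-resistant 786-O tumours and 5 untreated 786-O tumours of that arm, and 5 sorafenib-resistant and 4 untreated A498 tumours. The mice were dosed by gavage, 6 days a week, with sorafenib at 80 mg/kg or sunitinib at 53.6 mg/kg once a tumour measured 12 mm. Tumours were collected at 12 mm before treatment or at 20 mm, and the labels give neither the size nor the time on drug of a single tumour. Resistance therefore cannot be told apart from tumour size or time on drug. Titles of the 786-O sorafenib arm carry a number prefix that no other arm has, so the difference between the arms' untreated tumours cannot be told apart from it. Replicate numbers only name tumours, in order of deposition. Both drugs block VEGF and PDGF receptors, and sorafenib also blocks RAF kinases. Each line is a single cell line, athymic mice lack mature T cells but keep other host cells, and nothing states that every tumour came from a mouse of its own, so p-values cover the spread between these tumours only.

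Prostaglandin E2 is made in steps. A phospholipase A2 frees arachidonic acid from membranes, a cyclooxygenase turns it into prostaglandin H2, and a terminal synthase turns that into prostaglandin E2, which signals through receptors that include EP2 and EP4, both known for raising cyclic AMP. Bradykinin, a short peptide cut from kininogen, acts on the B2 receptor, whose signalling can itself release arachidonic acid, while the B1 receptor answers to kinins that have lost their last arginine. In the kidney both systems are known for their part in blood flow and salt handling, and in many tumours prostaglandin E2 is known for effects on vessels and immune cells.

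The promoters of the 3 members that were higher in resistant 786-O tumours are printed first, because the report turns on these genes and because BDKRB1 and BDKRB2 lie next to each other with 0 protein-coding genes between them. Each line gives the 250 bases before the gene's start, 5′ to 3′ on the gene's strand, from RefSeq (GRCh38.p14). The intervals are chr9:129753043-129753292 on the minus strand for PTGES, chr14:96204589-96204838 on the plus strand for BDKRB2 and chr14:96255960-96256209 on the plus strand for BDKRB1. Capitals mark matches, on either strand, to the SP1 box GGGCGG, the EGR1 element GCGTGGGCG, the AP-1 element TGANTCA, the cyclic AMP element TGACGTCA, the hypoxia element's core ACGTG, and TGACATCA.
PTGES: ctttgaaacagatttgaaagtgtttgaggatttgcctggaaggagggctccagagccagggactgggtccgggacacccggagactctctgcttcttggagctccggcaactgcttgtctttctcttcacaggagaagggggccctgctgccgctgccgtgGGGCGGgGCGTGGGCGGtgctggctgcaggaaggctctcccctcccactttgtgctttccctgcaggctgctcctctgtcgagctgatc
BDKRB2: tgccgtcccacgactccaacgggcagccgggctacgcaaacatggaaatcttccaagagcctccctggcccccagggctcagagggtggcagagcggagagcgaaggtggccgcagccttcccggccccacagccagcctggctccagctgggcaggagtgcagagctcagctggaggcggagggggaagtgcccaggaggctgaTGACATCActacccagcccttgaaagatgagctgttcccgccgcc
BDKRB1: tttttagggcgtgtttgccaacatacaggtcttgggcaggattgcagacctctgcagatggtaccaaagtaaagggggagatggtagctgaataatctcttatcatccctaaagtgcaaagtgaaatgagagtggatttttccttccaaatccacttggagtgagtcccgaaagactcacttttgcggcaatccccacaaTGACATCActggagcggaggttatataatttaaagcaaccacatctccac
The PTGES window held 2 GGGCGG boxes, 89 and 78 bases before the start. The box at 78 overlaps a GCGTGGGCG that begins 82 bases before the start. GGGCGG was in 42.6% of the 35116 promoter windows of this length in the table and GCGTGGGCG in 0.72%. A window of PTGES2 also held GCGTGGGCG, 147 bases before its start. The BDKRB2 and BDKRB1 windows held none of the SP1, EGR1, AP-1, cyclic AMP or hypoxia letters. Their longest shared run was ATGACATCACT, 11 bases, which starts 46 bases before the BDKRB2 start and 51 before the BDKRB1 start and was in 0.0513% of all windows. TGACATCA within it was added to the motifs after these sequences had been seen, and 2.37% of all windows held it. The AP-1, cyclic AMP and hypoxia letters were in 6.57%, 1.65% and 18.5% of all windows, and GGAA, the core that ETS factors bind and which is left in lower case, was in 92.7%. All 9 members had an entry, and these matches describe letters in a window, not binding.

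PTGES, the inducible microsomal prostaglandin E synthase, had the highest signals of its probe set in the resistant 786-O tumours. It measured 3009.7, 2988, 2355, 2290.1 and 2746 in sorafenib-resistant 786-O tumours, against 916, 957, 802, 1033 and 785.8 in untreated tumours of that arm. It measured 2616, 2534, 4359 and 2669 in sunitinib-resistant tumours, against 978, 1110, 1005, 1178 and 1679 in untreated tumours of that arm. Every resistant 786-O tumour on either drug lay above every untreated 786-O tumour. The difference was 1.56 ± 0.17 under sorafenib and 1.33 ± 0.18 under sunitinib on the log2(signal + 16) scale (standard error of the fit), or 2.94-fold and 2.52-fold. These 786-O contrasts chose the set, so its members get values here and no p. The second PTGES probe set, which was dimmer, differed by 1.03 under sorafenib and 0.98 under sunitinib, again without overlap between the groups.

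BDKRB2, the constitutive bradykinin receptor, was also higher in resistant 786-O tumours, with a wider spread. It measured 2155, 1091, 1977, 1252 and 1180.01 in sorafenib-resistant tumours, against 1043, 513, 400.1, 248 and 302 in untreated tumours of that arm. The highest untreated tumour, replicate 1, lay just below the lowest resistant one. It measured 851, 1165, 1322 and 2731 in sunitinib-resistant tumours, against 588, 413, 752, 592 and 715 in untreated tumours of that arm. Again the groups did not overlap, and replicate 4 of the sunitinib-resistant tumours stood highest of all 28. The difference was 1.71 ± 0.33 under sorafenib, 3.27-fold, and 1.18 ± 0.35 under sunitinib, 2.26-fold.

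BDKRB1, the inducible receptor for kinins without their last arginine, was dimmer. It measured 261, 162, 234, 214 and 211 in sorafenib-resistant 786-O tumours, against 169, 153, 136, 173 and 141 in untreated tumours of that arm, and 1 resistant tumour fell among the untreated ones. It measured 202, 211, 267 and 502 in sunitinib-resistant tumours, against 113, 121, 176, 123 and 131 in untreated tumours of that arm, without overlap. The tumour at 502 was replicate 4, the one highest in BDKRB2. The difference was 0.44 ± 0.19 under sorafenib and 0.98 ± 0.20 under sunitinib, and sorafenib minus sunitinib came to -0.55 ± 0.28.

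PTGER4, the EP4 receptor, went the other way in 786-O. It measured 417, 604, 402, 533 and 603 in sorafenib-resistant tumours, against 608, 668, 775, 761.9 and 932 in untreated tumours of that arm, so that the closest pair of tumours was 604 and 608. It measured 568, 557, 382 and 586 in sunitinib-resistant tumours, against 974, 791, 698, 725 and 570.2 in untreated tumours of that arm, and here the groups overlapped. The differences were -0.54 ± 0.16 under sorafenib and -0.51 ± 0.17 under sunitinib. The second PTGER4 probe set stayed between 4.16 and 28.1 on all arrays, under the filter limit. PTGER2, the EP2 receptor, lay between 13.7 and 98.9 in the 786-O tumours and between 1.97 and 24.2 in the A498 tumours. Only 2 arrays of 28 put it above the limit, 1 of sorafenib-resistant 786-O and 1 of untreated 786-O in the sunitinib arm, and no difference was read from it.

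The cyclooxygenases did not follow PTGES. PTGS1, the cyclooxygenase that most tissues make without stimulation, measured 1872, 973, 1448, 3197 and 1566 in sorafenib-resistant 786-O tumours, against 2269, 2948, 4350.5, 2802 and 2865 in untreated tumours of that arm. It measured 1581, 858, 861 and 649.9 in sunitinib-resistant tumours, against 1499, 2473, 2069, 1722 and 1661 in untreated tumours of that arm. Resistant tumours were mostly lower, with 1 resistant tumour among the untreated ones in each arm, replicate 4 under sorafenib and replicate 1 under sunitinib. The difference was -0.82 ± 0.30 under sorafenib and -0.98 ± 0.31 under sunitinib, and over the other 3 PTGS1 probe sets it ran from -0.86 to -0.42 and from -0.88 to -0.0037. PTGS2, the cyclooxygenase that inflammatory signals induce, was near the filter limit in 786-O: 75.4 to 164.6 in sorafenib-resistant tumours, against 60.2 to 101 in untreated tumours of that arm. It was 48.7 to 61.2 in sunitinib-resistant tumours, against 46.4 to 105 in untreated tumours of that arm. PTGES2, a second membrane-bound synthase, differed by -0.13 ± 0.15 under sorafenib and -0.20 ± 0.16 under sunitinib, with overlap in both arms. PTGES3, a cytosolic synthase better known as the HSP90 co-chaperone p23, differed by -0.19 ± 0.09 and -0.05 ± 0.09, also with overlap.

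**Figure D1:**
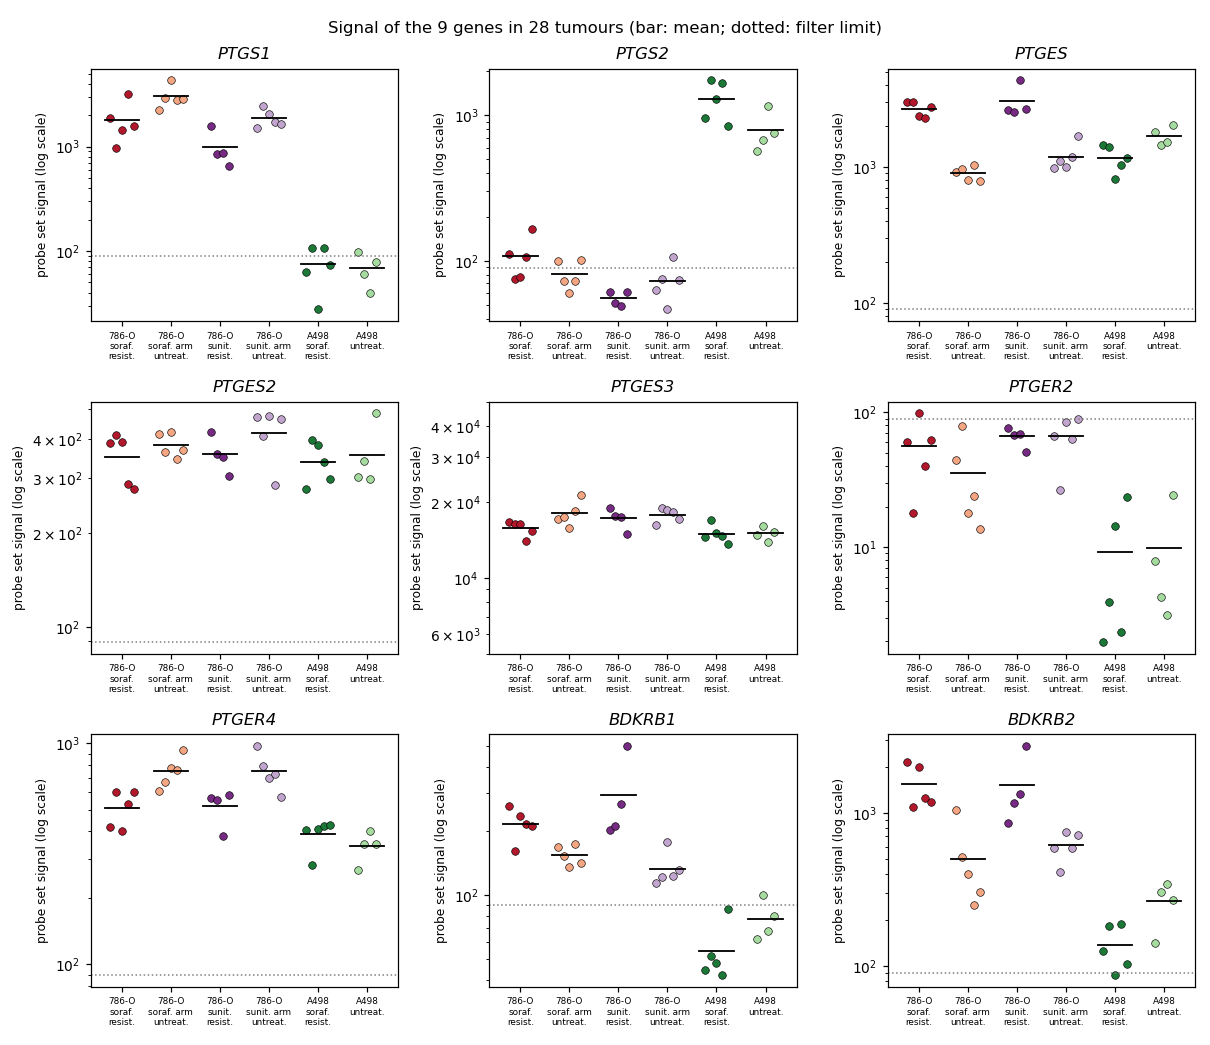
Signal of each gene's brightest probe set (log axis, a scale of its own in each panel) in every tumour of the 6 groups; points are tumours, bars are group means, and the dotted line is the filter limit of 89.4. PTGES and BDKRB2 sit higher in both resistant 786-O groups than in their untreated groups and lower in resistant than in untreated A498 tumours on average, while PTGS1 and PTGS2 split by line.

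Set against the whole table, resistant and untreated tumours did not overlap for 3 of the 8 members in the 786-O sorafenib arm, PTGES, BDKRB2 and PTGER4, and for 12.5% of all genes. In the sunitinib arm they did not overlap for PTGES, BDKRB1 and BDKRB2, and for 8.46% of all genes. Since the set was selected on these contrasts, by the PTGES and BDKRB2 signals, no test is given for its members there and nothing is read from those shares.

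Whether the pattern of the 786-O tumours is seen in a second line was asked of A498 under sorafenib, an arm that did not enter the choice of genes. No member passed the test there: 0 of 8 had a limma adjusted p under 0.05, 4 had an unadjusted p under 0.05, and 6.34% of all 13808 genes passed. The median difference of the 8 was -0.03, against 0.03 for all genes. PTGES measured 1448, 1404, 813, 1029 and 1166 in resistant A498 tumours, against 1816, 1454, 1515 and 2024 in untreated ones. All 5 resistant tumours were below all 4 untreated ones, by a narrow margin at 1448 and 1454, and PTGES was the only member without overlap, where 9.14% of all genes had none. Its difference was -0.55 ± 0.18, with a limma adjusted p of 0.0677 and a two-sided exact permutation p of 0.0317. The permutation covers 126 arrangements, for which 0.00794 is the smallest p. The second PTGES probe set differed by -0.63 with overlap.

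BDKRB2 measured 125, 183, 86.9, 186 and 103 in resistant A498 tumours, against 141, 306, 344 and 268 in untreated ones. The untreated tumour at 141 lay among the resistant ones. The difference was -0.86 ± 0.35, with a limma adjusted p of 0.154 and an exact permutation p of 0.0476. BDKRB1 differed by -0.43 ± 0.20 (limma adjusted p = 0.228, exact permutation p = 0.0794), but 8 of the 9 A498 tumours were under the filter limit. PTGS2 measured 953, 1746, 1294, 1660.3 and 846 in resistant A498 tumours, against 572, 679, 1159 and 752 in untreated ones. The 2 groups overlapped at untreated replicate 3. Its difference was 0.70 ± 0.23, with a limma adjusted p of 0.074 and an exact permutation p of 0.0635. The differences of PTGS1, PTGES2, PTGES3 and PTGER4 ran from -0.06 to 0.18, with limma adjusted p-values of 0.599 to 0.982. The A498 count depended on single tumours. Without replicate 1 of the resistant tumours 2 members passed, PTGES at -0.63 and PTGS2 at 0.79. Without resistant replicate 5 or untreated replicate 3 PTGS2 alone passed, at 0.84 and 0.90.

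Set side by side under sorafenib, PTGES and BDKRB2 had opposite signs in the lines. The A498 difference minus the 786-O difference was -2.11 ± 0.25 for PTGES and -2.57 ± 0.49 for BDKRB2, given as values because the 786-O side chose both genes. The same value was -0.86 ± 0.28 for BDKRB1, 0.72 ± 0.23 for PTGER4 and 0.88 ± 0.43 for PTGS1. It was 0.38 ± 0.32 for PTGS2, 0.07 ± 0.22 for PTGES2 and 0.19 ± 0.12 for PTGES3.

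**Figure D2:**
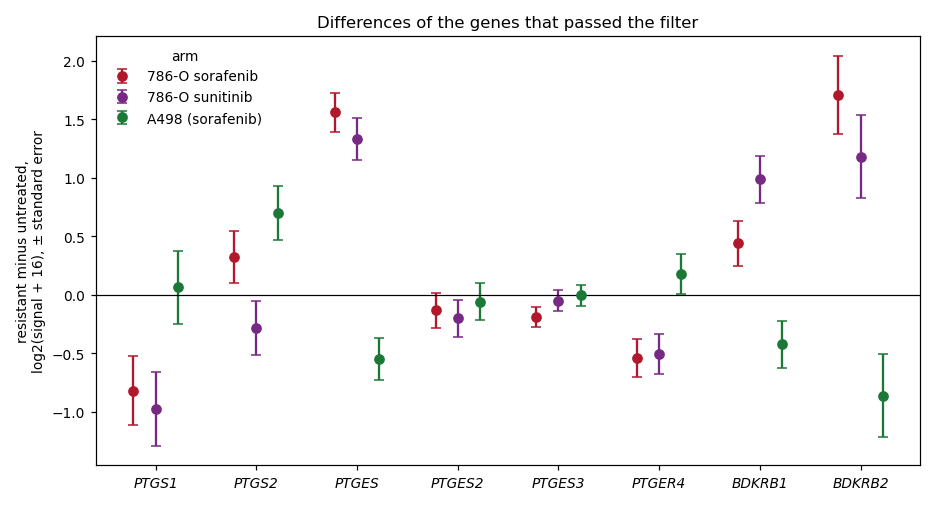
Resistant minus untreated difference of the 8 members that passed the filter, on the log2(signal + 16) scale, in the 3 arms; bars are standard errors of the fit. PTGES and BDKRB2 are above 1 in both 786-O arms and below 0 in A498, while PTGES2 and PTGES3 lie near 0 in all 3.

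Among the members that passed the filter, the cyclooxygenases differed most between the lines before treatment. Between untreated A498 and untreated 786-O tumours of the sunitinib arm, PTGS2, PTGES3 and PTGER4 passed the test and PTGES2 did not. Of those that passed, PTGS2 was higher and the others lower in A498, where 58.0% of all genes passed. PTGES and BDKRB2 are left out of this test, because the same untreated 786-O tumours had entered the choice of both, and their differences are given below as values. PTGS1 and BDKRB1 passed the filter through 786-O, the line where they were brighter, so no p is given for them. The median difference of the 8, with the members left out of the test included, was -0.46, against -0.06 for all genes. PTGS1 measured 98.7, 60.8, 39.5 and 78 in untreated A498 tumours, against 1499 to 2473 in the untreated 786-O tumours listed above. The difference was -4.51 ± 0.31. Since 3 of 4 A498 tumours were under the filter limit, the fold is a bound: at least 20.2-fold lower in A498 with signals under the limit set to it. PTGS2 measured 572, 679, 1159 and 752 in untreated A498 tumours, against 63.5, 74.4, 46.4, 105 and 74.1 in the untreated 786-O tumours. The difference was 3.17 ± 0.23 (limma adjusted p = 1.69e-11), and with 4 of 5 untreated 786-O tumours under the limit it came to at least 8.25-fold higher in A498. All other probe sets of both genes had the same direction without overlap, from -4.61 to -3.01 for PTGS1 and 2.60 for PTGS2. Over all tumours PTGS1 was above the limit in 3 of 9 A498 and in 19 of 19 786-O tumours, and PTGS2 in 9 of 9 A498 and in 6 of 19 786-O tumours. The order of the lines was the same in resistant tumours: PTGS1 was at 27.6 to 108 in resistant A498 tumours, against 649.9 to 3197 in resistant 786-O tumours.

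**Figure D3:**
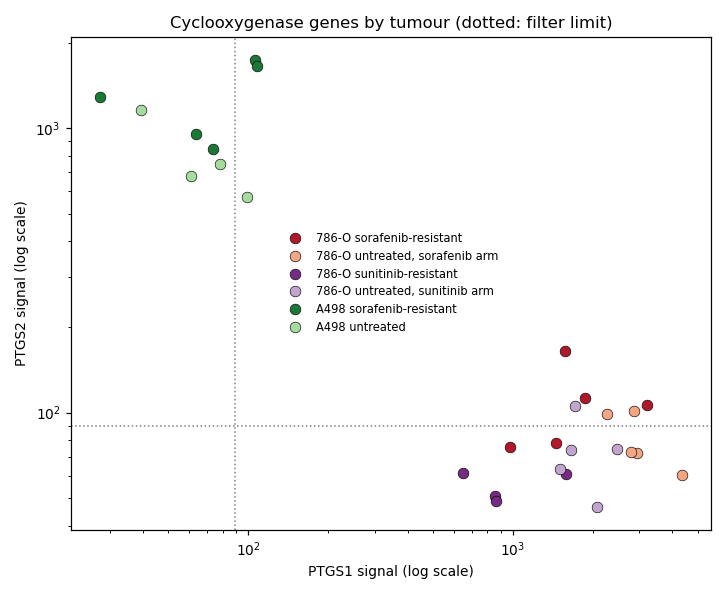
PTGS2 against PTGS1 signal of each of the 28 tumours (log axes), coloured by group; dotted lines are the filter limit of 89.4. The 9 A498 tumours lie at upper left, with PTGS2 from 572 to 1746, and the 19 786-O tumours at lower right, with PTGS1 from 649.9 to 4350.5; each gene is read against its own axis.

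Of the remaining members, PTGES was higher in untreated A498 tumours, 1702 ± 266 (SD, n = 4), than in untreated 786-O tumours, 1190 ± 285 (SD, n = 5). The difference was 0.53 ± 0.18, the groups overlapped, and without untreated A498 replicate 4 it was 0.44. BDKRB2 averaged 265 ± 88.2 in untreated A498 tumours (SD, n = 4) and 612 ± 133 in untreated 786-O tumours (SD, n = 5), a difference of -1.20 ± 0.35. Against the untreated tumours of the sorafenib arm it was -0.76. PTGER4 was lower in A498, with a difference of -1.09 ± 0.17 (limma adjusted p = 4.8e-06). BDKRB1 differed by -0.67 ± 0.20, given as a value, with 3 of the 4 untreated A498 tumours under the limit. PTGES3 differed by -0.25 ± 0.09 (limma adjusted p = 0.0215). That call was lost with quantile normalisation, where the difference was -0.11, with median centring at -0.24, with the GAPDH covariate at -0.23 and without untreated A498 replicate 3 at -0.21. PTGES2 differed by -0.23 ± 0.16 (limma adjusted p = 0.227) and passed at -0.36 without untreated 786-O replicate 4 and at -0.38 without untreated A498 replicate 4. Ordered by mean signal, PTGES was highest in sunitinib-resistant 786-O tumours, at 3044, and next in sorafenib-resistant ones, at 2678, whose ranges overlap. Untreated A498 tumours came next, at 1702, below every sorafenib-resistant tumour. The untreated 786-O tumours of the sunitinib arm at 1190, resistant A498 tumours at 1172 and the untreated tumours of the 786-O sorafenib arm at 899 came after them, each group overlapping the one before. BDKRB2 was highest in the sorafenib-resistant and sunitinib-resistant 786-O tumours, at 1531 and 1517, which overlap. It was lower, without overlap, in untreated 786-O tumours of the sunitinib arm, at 612. Then came untreated 786-O tumours of the sorafenib arm at 501, untreated A498 tumours at 265 and resistant A498 tumours at 137, again each overlapping the group before.

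The untreated 786-O tumours of the 2 arms were compared as a check on the baselines. Apart from PTGES and BDKRB2, which are given as values, no member had a limma adjusted p under 0.05 between the sorafenib-arm and the sunitinib-arm untreated tumours. Of all genes 0.275% passed. PTGS1 alone of those tested had an unadjusted p under 0.05, at 0.68 ± 0.30 (limma adjusted p = 0.319). PTGES, whose untreated tumours had entered its choice, differed by -0.38 ± 0.17. BDKRB2 differed by -0.44 ± 0.33 and BDKRB1 by 0.20 ± 0.19.

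Within the 19 786-O tumours the members did not all move as 1 group. BDKRB1 and BDKRB2 correlated at Pearson r = 0.78 over the 19 tumours and at 0.66 after the mean of each of the 4 groups was taken out. PTGES and BDKRB2 correlated at 0.78 over the tumours and at 0.04 with group means taken out. The first pair therefore varied together among tumours of 1 group, while PTGES and BDKRB2 did not. PTGES and BDKRB2 were chosen as higher in resistant 786-O tumours, so their r over the 19 tumours follows from that choice. Nothing is read from it. PTGES and PTGER4 correlated at -0.81, and at -0.60 with group means taken out. The points share their groups and arms, and these coefficients are descriptions. Likewise the sunitinib-resistant tumour highest in PTGES, replicate 3 at 4359, was not the one highest in the kinin receptors, but was the one lowest in PTGER4, at 382.

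**Figure D4:**
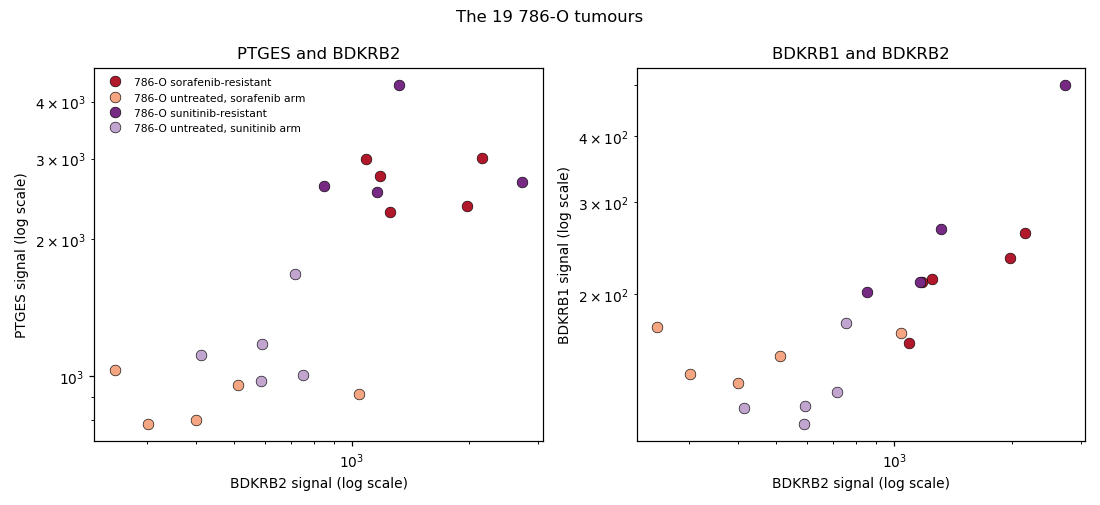
PTGES (left) and BDKRB1 (right) signal against BDKRB2 signal in the 19 786-O tumours (log axes), coloured by group. BDKRB1 and BDKRB2 are high together also among tumours of 1 group, with the sunitinib-resistant tumour at 502 and 2731 at the upper end; PTGES separates resistant from untreated tumours and correlates with BDKRB2 at 0.04 with group means taken out.

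The genes with the most similar pattern to PTGES over the 19 786-O tumours, by Pearson r of log2(signal + 16), were CAST (0.94), FTSJ1 (0.93), LHFPL2 (0.93), RRAGC (0.92) and PFDN2 (0.91). With group means taken out these coefficients were 0.60, 0.60, 0.51, 0.37 and 0.31. For BDKRB2 they were PCOLCE2 (0.92), ITGB5 (0.92), LTBP1 (0.92), GJB2 (0.91) and SCARB1 (0.91), and 0.75, 0.75, 0.83, 0.74 and 0.78 with group means taken out. In A498 the resistant minus untreated difference was 0.58 ± 0.16 for LHFPL2 and 1.43 ± 0.32 for LTBP1, and -0.44 ± 0.32 for GJB2 and -0.27 ± 0.15 for SCARB1. The same difference was 0.35 ± 0.07 for CAST, 0.27 ± 0.14 for FTSJ1, 0.33 ± 0.10 for RRAGC and 0.15 ± 0.08 for PFDN2. For PCOLCE2 it was 0.23 ± 0.20 and for ITGB5 0.67 ± 0.15, where the median of all genes was 0.03.

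The steps around the 9 genes were read from 9 lists with 69 further genes, of which 65 had a probe set and 52 passed the filter. These genes did not enter the choice of the members, but the lists were drawn up with earlier results known. Under sorafenib 5 rose and 9 fell in 786-O, or 14 of 52, against 15.2% of all genes, with KLKB1 among the 9 although under the filter limit throughout that arm. The lists' median was -0.17, against -0.05 for all genes. Under sunitinib 2 rose and 4 fell, against 5.06% of all genes, with a median of -0.06 against -0.01. In A498 2 rose and 1 fell, against 6.34%, with a median of -0.03 against 0.03. With arrays centred on their medians 2 rose and 3 fell in A498. Between the untreated 786-O tumours of the 2 arms 0 of the 52 passed by limma, and 6 had an unadjusted p under 0.05.

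Most of the listed genes that transport or inactivate prostaglandins fell in the 786-O sorafenib arm. Of the 6 genes, all above the filter, 4 fell and 0 rose under sorafenib, 1 fell under sunitinib and 0 passed by limma in A498, where 1 had an unadjusted p under 0.05. Their medians were -0.75, -0.43 and -0.24, against -0.05, -0.01 and 0.03 for all genes. The shares of all genes that passed in either direction were 15.2%, 5.06% and 6.34%. HPGD, the dehydrogenase that starts the inactivation of prostaglandin E2, averaged 1089 ± 340.3 in sorafenib-resistant tumours (SD, n = 5) and 3206 ± 411 in untreated tumours of that arm (SD, n = 5). It fell by 1.60 ± 0.34 (limma adjusted p = 0.00205). Under sunitinib the HPGD difference was -1.20 ± 0.37 (limma adjusted p = 0.0549), without overlap, and in A498 it was -1.06 ± 0.37 (limma adjusted p = 0.0835). PTGR1 and PTGR2, reductases of the next step, fell under sorafenib by 0.76 ± 0.15 (limma adjusted p = 0.00104) and 0.73 ± 0.22 (limma adjusted p = 0.0277). PTGR2 fell also under sunitinib, by 0.94 ± 0.24 (limma adjusted p = 0.0212). That call was lost without sunitinib-resistant replicate 3 or 4 or untreated replicate 4, at -0.75, -0.90 and -0.86. ABCC4, an exporter of prostaglandins, fell under sorafenib by 0.83 ± 0.14 (limma adjusted p = 0.000217). SLCO2A1, which carries prostaglandins into cells, differed by -0.02 ± 0.31, with all 5 sorafenib-resistant tumours under the filter limit.

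Terminal enzymes of other prostaglandins moved in both directions. Of 6 tested, 1 rose and 2 fell under sorafenib, 2 fell under sunitinib and 1 fell in A498. AKR1C3, an aldo-keto reductase that makes prostaglandin F and also reduces steroids, averaged 1505 ± 649 in sorafenib-resistant 786-O tumours (SD, n = 5) and 6740 ± 1032 in untreated tumours of that arm (SD, n = 5). It fell by 2.29 ± 0.26 under sorafenib (limma adjusted p = 1.04e-06) and by 1.54 ± 0.27 under sunitinib (limma adjusted p = 0.00205), while A498 gave -0.03 ± 0.27. Near-identical AKR1C genes could share its probes. PTGDS, a prostaglandin D synthase, fell by 2.21 ± 0.39 under sorafenib (limma adjusted p = 0.000302) and by 1.48 ± 0.42 under sunitinib (limma adjusted p = 0.0366). The sunitinib call of PTGDS held without untreated replicate 4 or 5, and was lost without any other single tumour of that arm: sunitinib-resistant replicates 1 to 4 and untreated replicates 1 to 3, over which the difference ran from -1.61 to -1.32. PRXL2B, a synthase of prostaglandin F, rose by 0.39 ± 0.12 under sorafenib (limma adjusted p = 0.0262). It did not pass without resistant replicate 1, 3 or 4 or untreated replicate 4, at 0.37, 0.37, 0.39 and 0.36. CBR1, a carbonyl reductase that can turn prostaglandin E2 into F, fell in A498 by 0.50 ± 0.12 (limma adjusted p = 0.012), with an adjusted p of 0.0617 in a limma fit of the A498 arrays alone.

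Of the phospholipases A2, which release arachidonic acid, 0 of 5 tested passed in any of the 3 arms by limma, at adjusted p, and the same held for 4 lipoxygenase and leukotriene genes and 3 other prostanoid receptors. Of these 12 genes 4 had an unadjusted p under 0.05 in the 786-O sorafenib arm, 0 in the sunitinib arm and 4 in A498. PLA2G4A, the cytosolic enzyme, was under the filter limit in all 19 786-O tumours, so no difference was read there, and in A498 it differed by -0.24 ± 0.32. PTGER3, PTGDR, PTGDR2 and PTGIR, receptors for prostaglandins E2, D2 and I2, were below the filter.

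On the kinin side the peptide's source was below the filter: KNG1, the kininogen gene, did not pass, and neither did ACE or CPN1, 2 enzymes that cut kinins. Of 9 kinin-degrading peptidases tested 2 rose under sorafenib in 786-O and 1 rose in A498. Under sunitinib 0 of the 9 passed by limma, and 0 had an unadjusted p under 0.05. CPD, a carboxypeptidase that takes off a last arginine, rose by 0.73 ± 0.10 (limma adjusted p = 7.89e-06) under sorafenib in 786-O and differed by 0.08 ± 0.10 under sunitinib. The difference between the 2 drugs, sorafenib minus sunitinib, was 0.65 ± 0.14 (limma adjusted p = 0.0246). CPD was the 1 pathway gene of 52 past the threshold in that comparison, where 0.949% of all genes passed. ECE1, a peptidase that also cuts bradykinin, rose by 0.62 ± 0.12 under sorafenib in 786-O (limma adjusted p = 0.000865) and by 0.69 ± 0.13 in A498 (limma adjusted p = 0.00224). In a limma fit of the A498 arrays alone the adjusted p of ECE1 was 0.0523. Of 5 kininogen-processing proteases and inhibitors 1 passed under sorafenib in 786-O: KLKB1, plasma prekallikrein, at -0.94 ± 0.32 (limma adjusted p = 0.0489). All 10 tumours of that arm were under the filter limit for KLKB1, and the gene passed the filter through other tumours, so no fall is read. The call was lost in 11 of 14 processing alternatives, where its adjusted p reached 0.24, and without sorafenib-resistant replicate 1, 3 or 4 or untreated replicate 1, 2, 4 or 5.

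Inducers of PTGS2 and PTGES and genes that answer to cyclic AMP were read for the signals before and after prostaglandin E2. Of 8 inducers, 1 rose and 1 fell under sorafenib in 786-O, 1 rose under sunitinib and 0 passed by limma in A498, where 1 had an unadjusted p under 0.05. RELA, a subunit of NF-kappa-B, rose by 0.48 ± 0.12 under sorafenib (limma adjusted p = 0.00889) and by 0.46 ± 0.13 under sunitinib (limma adjusted p = 0.0386). The mean of all RELA probe sets gave 0.19 under sorafenib (limma adjusted p = 0.217), and that call was lost also without the 2 arrays of highest ACTB difference, at 0.42. The sunitinib call of RELA was lost without sunitinib-resistant replicate 2, 3 or 4 or untreated replicate 3, 4 or 5, where it ran from 0.37 to 0.48. IL1RN, the interleukin-1 receptor antagonist, fell by 1.43 ± 0.40 under sorafenib (limma adjusted p = 0.0154), with all 5 resistant tumours under the filter limit. It did not pass without resistant replicate 4, at -1.23, or without the 2 arrays of highest ACTB difference, at -1.13. IL1A and IL1B, which induce both PTGS2 and PTGES in many cells, differed by 0.43 ± 0.28 and 0.36 ± 0.22 under sorafenib. EGR1, a factor known to act on the PTGES promoter, differed there by 0.38 ± 0.29. Mean signals in sunitinib-resistant and untreated tumours were 67.6 and 105.9 for IL1A, 186 and 204 for IL1B, and 1954 and 1759 for EGR1. In resistant and untreated A498 tumours they were 76.9 and 62.5, 250 and 301, and 1088 and 1837. IL1A, IL1B and EGR1 passed in no arm. Of 6 genes that answer to cyclic AMP, 1 rose and 1 fell in each 786-O arm, and 1 rose and 0 fell in A498. CREM, NR4A1, NR4A2 and PDE4B passed in no arm. SIK1 rose in all 3 arms, by 1.00 ± 0.16, 1.31 ± 0.17 and 1.03 ± 0.17 (limma adjusted p = 0.000118, 0.00021 and 0.000738). Without probe sets open to cross-hybridisation SIK1 differed by 0.05, 0.37 and 0.32 and passed in none of the 3, and a near-identical gene copy exists. PDE4D, a phosphodiesterase that breaks cyclic AMP down, fell by 0.84 ± 0.17 under sorafenib (limma adjusted p = 0.00115) and by 0.65 ± 0.18 under sunitinib (limma adjusted p = 0.035). The sunitinib call of PDE4D was lost without resistant replicate 2, 3 or 4 or untreated replicate 1, 2 or 4, where it ran from -0.68 to -0.50. The mean of its probe sets gave -0.32 and -0.24 and did not pass in either arm.

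**Figure D5:**
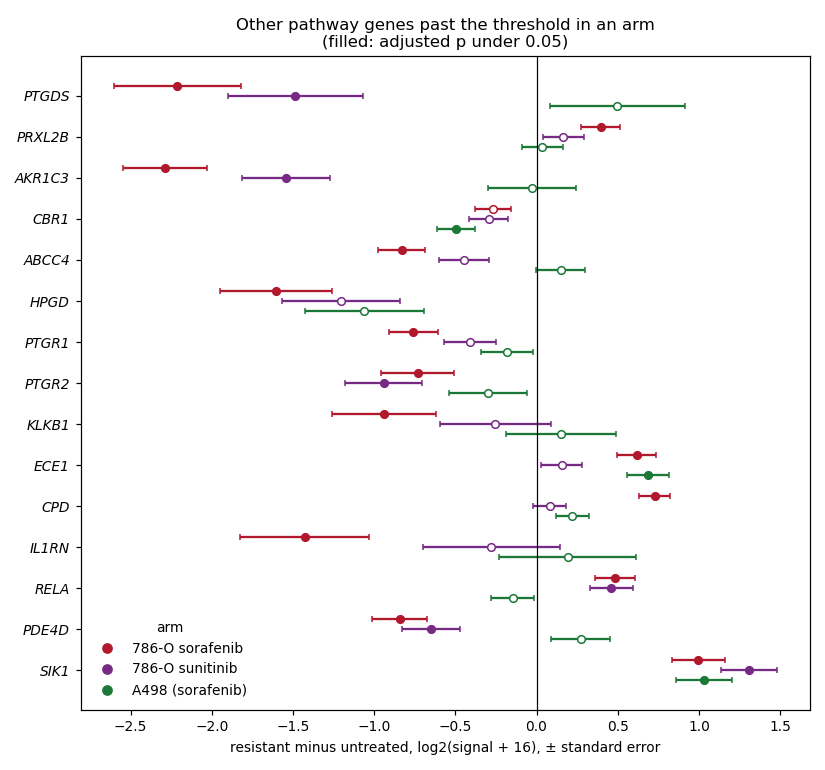
Resistant minus untreated difference, on the log2(signal + 16) scale with standard errors, of the 15 listed pathway genes that passed the test in at least 1 of the 3 arms; filled points passed an adjusted p of 0.05 in that arm. AKR1C3, PTGDS and PDE4D lie below 0 in both 786-O arms and near or above 0 in A498, and SIK1 lies near 1 in all 3 arms with its brightest probe set.

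Differences between the lines under sorafenib were tested for these genes. The A498 difference minus the 786-O difference passed for 7 of the 52 genes, 5 upward and 2 downward, where 5.19% of all genes passed. Among the named genes it was 2.71 ± 0.57 for PTGDS, 2.26 ± 0.37 for AKR1C3, 1.12 ± 0.25 for PDE4D and 0.98 ± 0.21 for ABCC4. It was -0.63 ± 0.18 for RELA and -0.51 ± 0.14 for CPD, with limma adjusted p-values from 0.000957 to 0.0401 over the 6. For HPGD it was 0.54 ± 0.50 (limma adjusted p = 0.587).

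Before treatment the lines differed in 32 of the 52 pathway genes, 19 higher and 13 lower in A498, where 58.0% of all genes passed. Some of the genes named here were under the filter limit in all 5 untreated 786-O tumours and passed the filter through A498, so their folds are bounds, with signals under the limit set to it. PLA2G4A was at least 15.9-fold higher in untreated A498 than in untreated 786-O tumours, and PTGIS, the prostacyclin synthase, at least 9.08-fold. ANPEP, an aminopeptidase, was at least 69.7-fold higher and SERPING1, the inhibitor of plasma kallikrein and C1, at least 7.23-fold. HPGD and PTGDS were lower in A498, with differences of -3.73 ± 0.37 and -4.80 ± 0.42. HPGD and PTGDS had limma adjusted p-values of 2.9e-09 or less, and no p is given for the genes that passed the filter through A498. In untreated A498 tumours, then, PTGS2 and PLA2G4A signals were higher and PTGS1 and HPGD signals lower than in untreated 786-O tumours.

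The tumours held host cells, and in such bulk samples fewer cells of a type and less RNA per cell cannot be told apart. The host cells were mouse cells, while the array's probe sets are for human genes. How far the markers below read host cells rather than the human tumour cells is therefore not known. The renal carcinoma and tubule markers PAX8, PAX2, VIM, KRT8, KRT18 and CDH6 all passed the filter. Under sorafenib in 786-O, CDH6 differed by -0.68 ± 0.13, PAX2 by -0.86 ± 0.29 and KRT18 by 0.42 ± 0.12 (limma adjusted p = 0.00084, 0.0418 and 0.02215). CDH6 fell also under sunitinib, at -0.58 ± 0.14 (limma adjusted p = 0.01755), and KRT8 fell in A498, at -0.44 ± 0.12 (limma adjusted p = 0.0292). Of 11 fibroblast and pericyte markers 9 passed the filter. Of these, 5 (COL1A1, COL1A2, COL3A1, RGS5 and FBLN1) fell and 0 rose in the 786-O sorafenib arm, where 15.2% of all genes passed in either direction. RGS5 fell also in the sunitinib arm, by 0.99 ± 0.24 (limma adjusted p = 0.0176). The list's summed signal was 2952 to 5009 in sorafenib-resistant tumours, against 7669 to 11051 in untreated tumours of that arm, and 3405 to 7541 in sunitinib-resistant tumours, against 4218 to 8691 in untreated tumours of that arm. In A498 it was 10895 to 24929 in resistant tumours, against 7320 to 16673 in untreated ones. Of 10 endothelial markers 8 were below the filter, and the sum was 229.6 to 527 in sorafenib-resistant 786-O tumours, against 452 to 597 in untreated tumours of that arm. Of the 2 tested, TIE1 fell in that arm, at -1.70 ± 0.40 (limma adjusted p = 0.00427), and PECAM1 differed by 0.005 ± 0.26. TIE1 was at 10.8 to 65.2 in the sorafenib-resistant tumours, under the filter limit. Macrophage sums overlapped between resistant and untreated tumours in every arm, although 1 of 6 macrophage markers tested fell in the 786-O sorafenib arm. That was AIF1, at -2.33 ± 0.67 (limma adjusted p = 0.019), with overlap between the groups. Of 5 mast cell markers 0 passed the filter. The part of host cells in the results on prostaglandin and kinin genes was not tested. The gap between the 3-prime and the 5-prime control probe sets of GAPDH and of ACTB, a sign of RNA quality, differed between resistant and untreated tumours by -0.03 to 0.05 (log2), with exact permutation p-values of 0.214 to 0.984.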

How the data were processed

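RNA from 28 snap-frozen tumours, extracted with Trizol per the labels, had been hybridised to 1-colour Affymetrix HG-U133 Plus 2.0 arrays. The deposited values are linear probe set intensity values, scaled by the authors, as the values show, to a 2% trimmed mean of about 500.06 on every array. RMA and MAS5 are named per the submitters' processing notes, without role or version. Array medians were 79.74 to 99.36, and the number of tumours limits the precision. The authors' genome build is not given in the sources used here; promoter sequences are RefSeq's, on GRCh38.p14.

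Values were taken as log2(signal + 16), with the brightest probe set of each gene among those with 1 symbol. Of 54675 probe sets 62 were controls, 41091 had 1 symbol, 1801 several and 11721 none. A signal above 89.4 on 4 arrays kept 13808 of 19775 genes. Groups were compared in a single limma model of all arrays (limma 3.58.1, R 4.3.3) with a mean for each group and Benjamini-Hochberg adjustment over all genes and a threshold of 0.05. Single genes in A498 were also tested by two-sided exact permutation of tumours. The fit was tested on simulated data. Figures used matplotlib 3.10.9 in Python 3.11.15.

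The members and the lists were chosen with earlier results of these data known. Members in 786-O arms were described, not tested, and so were PTGES and BDKRB2 between untreated groups. PTGS1 and BDKRB1 were described, not tested, between the untreated lines. Genes named were all members, up to 3 called genes per list and arm, and the 5 with the highest correlation with PTGES and with BDKRB2. Alternatives were pseudocounts of 1 and 64, no filter or the 75th percentile, mean or unambiguous probe sets, quantile normalisation, median centring, RNA quality covariates, array weights, trended robust variance, only the arrays of a comparison, other or pooled untreated tumours, and each tumour left out. The fit without the 2 arrays of highest ACTB difference, other probe sets of a member and the motif TGACATCA were added after the data were seen.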

Additional observations from a re-analysis of the deposited data

Results flagged for a closer look

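Some single tumours stood apart from the rest of their group by Dixon's test, which flags about 1 in 20 groups by chance. With 6 groups for each gene looked at, several such flags are expected by chance alone. PTGES measured 4359 in sunitinib-resistant 786-O replicate 3, where the other 3 tumours lay between 2534 and 2669. In the same tumour PTGER4 measured 382, where the others lay between 557 and 586. PTGER4 measured 282 in resistant A498 replicate 2, where the others lay between 405 and 427. BDKRB1 measured 85.9 in resistant A498 replicate 5, under the filter limit, where the others lay between 41.9 and 51.8. ABCC4 measured 3304 in untreated 786-O replicate 1 of the sunitinib arm and 2830.2 in untreated A498 replicate 4, where the others of those groups lay between 2376 and 2546 and between 2341 and 2406.

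The lines differed in their change under sorafenib. For PTGES the A498 difference minus the 786-O difference was -2.11, and for BDKRB2 it was -2.57. All 5 resistant 786-O tumours lay above the mean of their untreated group and all 5 resistant A498 tumours below the mean of theirs in both genes, and this was not tested because the 786-O arm chose them. The same quantity passed the limma test for PTGDS at 2.71 (adjusted p = 0.00714), AKR1C3 at 2.26 (adjusted p = 0.000957), PDE4D at 1.12 (adjusted p = 0.0101), ABCC4 at 0.98 (adjusted p = 0.00746), RELA at -0.63 (adjusted p = 0.0401) and CPD at -0.51 (adjusted p = 0.0339). Between the drugs in 786-O, sorafenib minus sunitinib, CPD passed at 0.65 (limma adjusted p = 0.0246).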

How the results depend on the processing

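No paired analysis was possible because the labels carry no replicate numbers that tumours of different groups share. No result changed direction past the threshold under any alternative run. Members past the threshold in A498 numbered 1 with a pseudocount of 64, median centring or trended robust variance and 2 with the 75th percentile filter or array weights, against 0, and 0 to 2 with each tumour left out. Pathway genes under sorafenib numbered 8 without ambiguous probe sets, against 14. Under sunitinib they numbered 3 without a filter or without ambiguous probe sets, against 6, and 2 to 6 with each tumour left out. In A498 they numbered 5 with median centring, 7 with array weights and 1 with only the arrays of the comparison, against 3. Over the alternatives PTGES ran from 1.29 to 1.65 under sorafenib and 1.16 to 1.52 under sunitinib, and BDKRB2 from 1.49 to 1.80 and 1.12 to 1.40. In A498 PTGES ran from -0.65 to -0.53 with p from 0.0307 to 0.147. Apart from leave-outs, 916 values kept their side of the threshold or their size, 36 lost the threshold and 9 gained it. Another 12 moved in size. These were counts of genes past the threshold and the PTGS1 difference under sunitinib, which ran from -1.32 to -0.45 over the alternatives. Under sunitinib the calls of RELA and PDE4D were lost without a filter, and those of PTGR2, RELA and PDE4D with only the arrays of the comparison. That of PDE4D was lost with quantile normalisation and median centring, and that of PTGDS without a filter and with the mean of its probe sets. Under sorafenib SIK1 was lost with the mean of its probe sets and PRXL2B without the 2 arrays of highest ACTB difference. The causes were not tested. Signals near the limit of 89.4, such as PTGS2 in 786-O and BDKRB1 in A498, carry little order.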

Other observations

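Of 4 genes of the lipoxygenase branch, which turns the same arachidonic acid into leukotrienes, 3 were higher in untreated A498 than in untreated 786-O tumours, where 58.0% of all genes passed in either direction. LTC4S, the leukotriene C4 synthase, differed by 2.46 ± 0.23 (limma adjusted p = 1.73e-09), ALOX5 by 1.71 ± 0.44 (limma adjusted p = 0.0018) and ALOX5AP, which presents arachidonic acid to ALOX5, by 0.88 ± 0.21 (limma adjusted p = 0.000988). LTA4H, which makes leukotriene B4, differed by -0.03 ± 0.11 (limma adjusted p = 0.855). Among phospholipases, PLAAT3 was at least 6.79-fold lower in A498, with all 4 untreated A498 tumours under the filter limit. PLA2G4C was at least 8.37-fold higher in A498, with all 5 untreated 786-O tumours under it. Signals under the limit were set to it. Of the other prostanoid receptors PTGFR, the receptor for prostaglandin F, was at least 1.32-fold lower in A498, with all 4 untreated A498 tumours under the limit. TBXA2R, the thromboxane receptor, differed by -0.01 ± 0.35. PLAAT3, PLA2G4C and PTGFR passed the filter through the line where they were brighter, so no p is given for them.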
